A study of Mus musculus with 4 samples.

Results

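Red cell barcodes were the droplet barcodes of the mouse hindlimb suspensions in which hemoglobin transcripts dominated. They were chosen by a rule on the deposited counts, with no filter on genes or on mitochondrial RNA: symbols starting with Hba- or Hbb- had to make up at least 50% of the UMIs (unique molecular identifiers, the count of captured transcript molecules) of a barcode and to total 50 or more UMIs. The rule kept 217 of 2581 deposited barcodes, which were 86 of 842 in the library of injured control limbs, 65 of 375 in that of injured slie/slie limbs, 26 of 1075 in that of uninjured control limbs and 40 of 289 in that of uninjured slie/slie limbs. Libraries are called control injured and so on, and values for all 4 are given in this order. Hemoglobin chose the barcodes, so its level is a description here, and the results are about the remaining transcripts and about how the hemoglobin UMIs were split among the globin genes.

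The tissue came from mice homozygous for slie (slie/slie), a spontaneous deletion in Ddr2, the gene of a collagen receptor tyrosine kinase, and from their littermate controls. All mice had a burn over 30% of the body surface on the back together with a cut of the left Achilles tendon, and tissue was taken at day 7. The injured libraries held the left tendon site with the tissue around it and the uninjured libraries the right limb of the same burned mice, so no library came from a mouse without a burn. Limbs of 2 mice were pooled in each library, which left 1 library per group: nothing was tested between groups, no p-value is given, and each interval covers counting error only. Tissue was digested with collagenase and dispase, and nothing in the labels names a step that removes red cells.

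A mammalian red cell is made in the marrow from a nucleated erythroblast, which fills with hemoglobin, expels its nucleus and enters the blood as a reticulocyte. The reticulocyte clears its mitochondria and ribosomes and has no gene to transcribe, so the RNA in it is what remains of the erythroblast's, and the mature cell keeps very little. Limb tissue carries red cells in the blood of its vessels.

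The genes that define the cell are shown first by the sequence just upstream of their transcription start, because hemoglobin chains and the heme enzyme Alas2 are made together in erythroblasts. Each line gives the 150 bases before the RefSeq start on the gene's own strand in GRCm38.p6, and capitals mark matches, on either strand, to 4 motifs searched by their letters: GATAA (the core bound by GATA factors), CACCC (bound by Krüppel-like factors), CCAAT (bound by the NF-Y complex) and TATAA (the TATA box). The windows are chr7:103827929-103828078 for Hbb-bs (minus strand), chr7:103813924-103814073 for Hbb-bt (minus strand), chr11:32283522-32283671 for Hba-a1 (plus strand) and chrX:150547267-150547416 for Alas2 (plus strand).
Hbb-bs: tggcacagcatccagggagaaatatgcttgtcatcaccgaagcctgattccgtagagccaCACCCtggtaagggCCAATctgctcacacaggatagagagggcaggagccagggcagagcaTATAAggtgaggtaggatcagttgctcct
Hbb-bt: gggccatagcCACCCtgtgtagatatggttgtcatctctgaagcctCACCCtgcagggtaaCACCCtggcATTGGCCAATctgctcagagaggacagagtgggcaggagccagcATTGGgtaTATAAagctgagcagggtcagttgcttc
Hba-a1: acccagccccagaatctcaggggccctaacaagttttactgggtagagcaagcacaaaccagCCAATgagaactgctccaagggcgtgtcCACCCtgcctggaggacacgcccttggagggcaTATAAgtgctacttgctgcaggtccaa
Alas2: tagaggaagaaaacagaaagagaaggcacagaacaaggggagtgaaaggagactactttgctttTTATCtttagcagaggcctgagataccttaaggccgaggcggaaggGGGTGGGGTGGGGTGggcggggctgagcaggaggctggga

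Each globin window held at least 1 match to CACCC, to the letters CCAAT and to the TATA box, which started 29 bases before the start in Hbb-bs, 28 in Hbb-bt and 27 in Hba-a1. The Hbb-bt window held 3 CACCC matches and 3 CCAAT matches, against 1 of each in Hbb-bs, and 1 of its CCAAT matches on the opposite strand ends where the next begins. The Alas2 window held neither CCAAT nor a TATA box, 1 GATAA match on the opposite strand and 3 adjacent opposite-strand CACCC matches. The window of Hba-a2, chr11:32296342-32296491 on the plus strand, is the Hba-a1 sequence shifted by 3 bases. Among 32851 RefSeq promoters cut to the same length, 13.3% held GATAA, 37.4% held CACCC, 24.5% held CCAAT, 14.2% held TATAA and 8.69% held CACCC together with CCAAT. Such letters are common, and a match is a description of the sequence.

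Red cell barcodes made up 10.2% of the deposited barcodes in control injured (95% Clopper-Pearson interval 8.25 to 12.5), 17.3% in slie/slie injured (13.6 to 21.6), 2.42% in control uninjured (1.59 to 3.52) and 13.8% in slie/slie uninjured (10.1 to 18.4). The control uninjured library, with the lowest share, also had the shallowest barcodes, which reached down to 48 UMIs, against 500 and 259 in the 2 injured libraries and 501 in slie/slie uninjured. Among barcodes with 500 or more UMIs the shares were 10.2%, 22.5%, 20.2% (20 of 99) and 13.8% in the order above, so the control uninjured library was no longer the lowest. Hemoglobin took 15.5%, 33.3%, 38.2% and 24.3% of all UMIs of the libraries (4515174, 1493147, 579790 and 1540053 in that order), and between 98.0% and 99.8% of those hemoglobin UMIs lay in red cell barcodes. The barcodes outside the rule had a median hemoglobin share of 0.0825% to 0.518%.

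Few barcodes lay near the limit of the rule. No barcode lay between 45% and 50% hemoglobin, and 2 lay between 50% and 55%, at 50.0% in control uninjured and 50.6% in slie/slie uninjured. The highest shares outside the rule among barcodes with 50 or more hemoglobin UMIs were 15.5%, 14.4%, 16.8% and 38.1% in control injured, slie/slie injured, control uninjured and slie/slie uninjured, and 2 further control uninjured barcodes passed 50% with fewer than 50 hemoglobin UMIs. Of the 217 barcodes, 203 were at 90% or more. The control injured and control uninjured libraries shared 1 barcode sequence, which was not a red cell barcode.

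**Figure D1:**
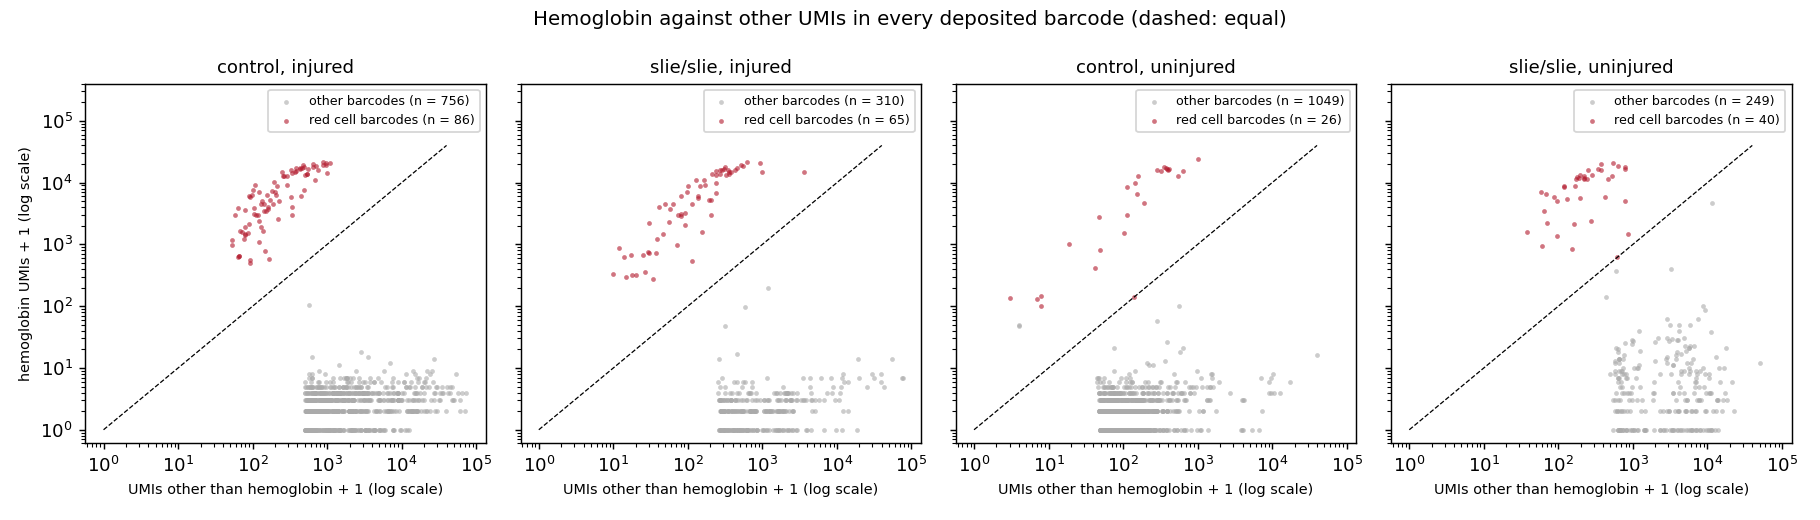
Hemoglobin UMIs against all other UMIs for every deposited barcode, both plus 1 and on log scales, with 1 panel per library; red points are red cell barcodes, grey points the others, and the dashed line marks equal numbers. The 86, 65, 26 and 40 red points form a cloud of their own, and no barcode lies between 45% and 50% hemoglobin.

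The cells held little else. Over all 4 libraries the red cell barcodes held 1778887 hemoglobin UMIs and 58177 others, the latter being 3.44%, 3.07%, 2.67% and 3.07% of their UMIs in control injured, slie/slie injured, control uninjured and slie/slie uninjured. The median red cell barcode had 6100, 5465, 7585 and 8976 UMIs and a hemoglobin share of 96.3%, 97.5%, 97.6% and 97.9%. UMIs other than hemoglobin ran from 52 to 1092 per barcode in control injured (median 177), from 9 to 3650 in slie/slie injured (129), from 2 to 1023 in control uninjured (148) and from 37 to 847 in slie/slie uninjured (207). The median number of genes was 97, 58, 60.5 and 76.5, and 195 of the 217 barcodes had fewer than 200 genes, a limit often used for keeping a cell. After each barcode was thinned to 100 UMIs the medians were 8, 6, 6.5 and 6 genes, with control injured again highest. Most of the UMIs left at that depth are hemoglobin, which narrows the count of genes in every library. Barcodes with more hemoglobin also held more of the rest (Spearman's rho 0.838, 0.917, 0.902 and 0.495 over 86, 65, 26 and 40 barcodes), 2 counts that share the capture efficiency of the droplet.

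The globin genes themselves were those of an adult mouse. Hbb-bs and Hbb-bt are adult beta globin genes, and Hba-a1 and Hba-a2 encode the alpha chain. All 4 were counted in each library, Hbb-bt from 17822 to 56638 UMIs and Hbb-bs from 100290 to 326783. The embryonic globin genes Hbb-y, Hbb-bh1, Hbb-bh2 and Hba-x had 0 UMIs in all 4 libraries, which allows up to 3 UMIs in a library. The theta globin genes Hbq1a and Hbq1b had 15, 14, 2 and 8 UMIs and 14, 11, 2 and 2 UMIs in control injured, slie/slie injured, control uninjured and slie/slie uninjured. Summed over barcodes, there were 0.815, 0.862, 0.864 and 0.886 alpha UMIs per beta UMI. Single barcodes ran from 0.467 to 6.14, from 0.649 to 3.18, from 0.463 to 4.51 and from 0.649 to 2.6. Of 86, 65, 26 and 40 barcodes, 25, 27, 8 and 10 held more alpha than beta. Hba-a2 gave 42.6%, 42.6%, 42.7% and 41.6% of the alpha UMIs, but the GENCODE transcripts of Hba-a1 and Hba-a2 were identical at 537 of 538 aligned bases, so how reads were divided between them is uncertain. Those of Hbb-bs and Hbb-bt matched at 579 of 624 aligned bases (92.8%).

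Hbb-bt gave 14.8%, 13.2%, 15.1% and 13% of the summed beta UMIs in control injured, slie/slie injured, control uninjured and slie/slie uninjured, a narrow range. Within each library the barcodes were far more spread, from 0.239% to 32.8%, from 0% to 27.3%, from 0% to 24.7% and from 0.115% to 18.8%. Of the barcodes with 1000 or more hemoglobin UMIs (78, 50, 18 and 37), 24, 13, 2 and 8 had less than 5% Hbb-bt, only 11, 6, 2 and 6 lay between 5% and 10%, and 43, 31, 14 and 23 were at 10% or more. The share went with depth: barcodes with 10000 or more hemoglobin UMIs had a median of 17.2% (lowest 3.35%, highest 25.9%) in control injured, 13.9% (9.47% to 21.9%) in slie/slie injured, 15.4% (11.4% to 24.7%) in control uninjured and 13.9% (6.49% to 18.8%) in slie/slie uninjured. At 1000 to 10000 hemoglobin UMIs the medians were 5.35%, 5.03%, 8.61% and 6.85%, and the values ran from under 5% to over 18% in every library. The Hbb-bt share showed little relation to the ratio of alpha to beta (rho -0.107, -0.297, 0.0423 and 0.0642).

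**Figure D2:**
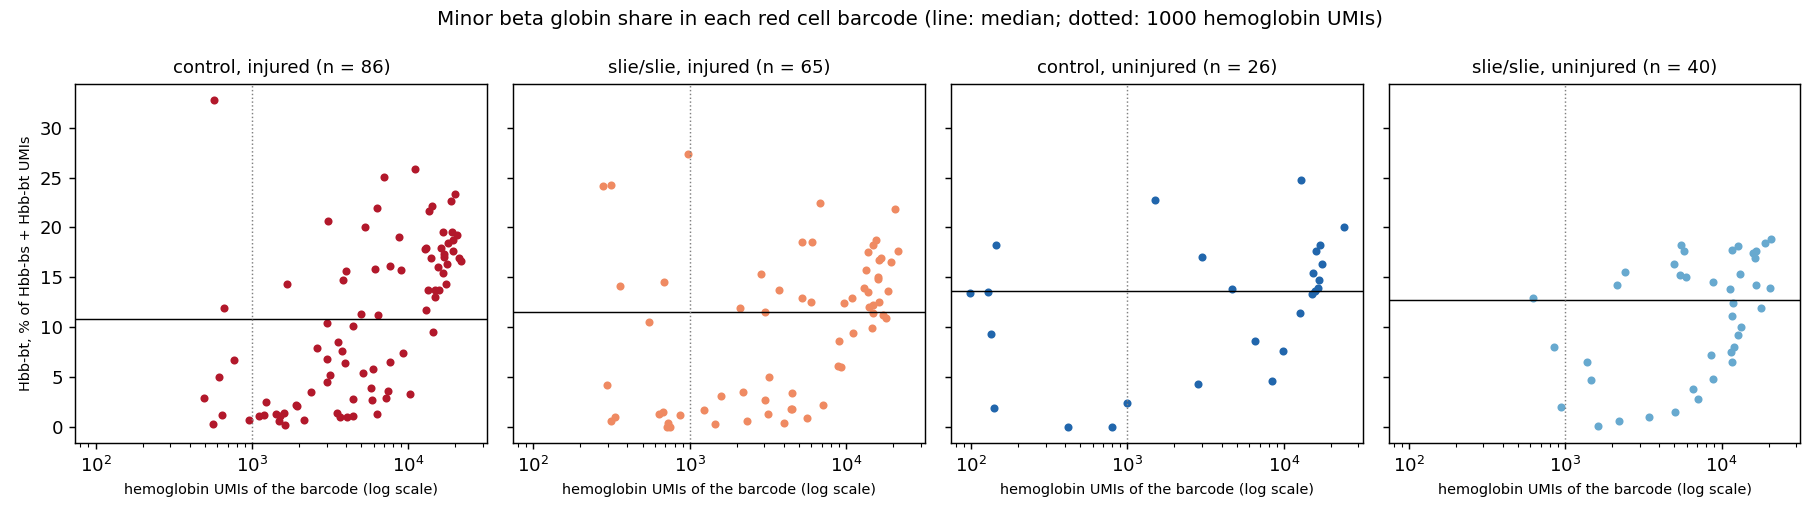
Hbb-bt as a percentage of Hbb-bs plus Hbb-bt UMIs (vertical axis) against hemoglobin UMIs (log scale) for each red cell barcode, with 1 panel per library; the horizontal line is the library's median (10.8%, 11.5%, 13.6% and 12.7% from left to right) and the dotted line marks 1000 hemoglobin UMIs. In each panel the deepest barcodes sit together above the low ones, while barcodes of middle depth are found at both levels.

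Barcodes with a low and a high Hbb-bt share also differed in their other transcripts. This split was chosen after its values were seen: within 1000 to 10000 hemoglobin UMIs, barcodes under 5% Hbb-bt were set against those at 10% or more, summed over libraries. There were 46 low barcodes (23 in control injured, 13 in slie/slie injured, 2 in control uninjured and 8 in slie/slie uninjured) with 5294 UMIs other than hemoglobin, and 36 high ones (15, 10, 3 and 8) with 7495. Of 97 genes with 20 or more UMIs, 26.8% were 2-fold or more lower in the low barcodes and 23.7% were 2-fold or more higher. The erythroid genes, the 91 members of the 8 lists given by role further on, lay to the low side: of the 21 that reached 20 UMIs, 11 were 2-fold lower and none was 2-fold higher, with a median log2 difference of -1.08 against -0.06 over all 97. Ribosomal protein genes lay to the other side, with 20 of 31 at 2-fold or more higher, none lower, and a median of 1.18.

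Pabpc1, the main cytoplasmic poly(A)-binding protein, had 18 UMIs in the low and 258 in the high barcodes, or 34.0 against 344 per 10000 UMIs other than hemoglobin, a 10.1-fold difference (95% interval 6.28 to 17.4). Mkrn1, an E3 ubiquitin ligase, had 19 against 184 UMIs (6.84-fold, 4.26 to 11.6), and Bpgm, which makes the 2,3-bisphosphoglycerate that lowers oxygen affinity, had 22 against 154 (4.94-fold, 3.15 to 8.12). Gpx1, a glutathione peroxidase, had 4 against 52 UMIs, Rsad2 3 against 53, and Eif1, a translation initiation factor, 0 against 35, at least 8.24-fold with a floor of 3 UMIs over the low barcodes. Each of these 6 genes was lower in the low barcodes of all 4 libraries, but the size of the difference varied and some counts were very small. The 2 low barcodes of control uninjured held 160 UMIs other than hemoglobin. In that library Eif1 had 0 against 1 UMI, Gpx1 0 against 5 and Rsad2 0 against 8. In slie/slie injured, Rsad2 had 1 against 4 UMIs. Pabpc1 stood at 14.3 against 460 per 10000 in control injured and at 134 against 250 in slie/slie injured. It stood at 62.5 against 718 in control uninjured and at 0 against 163 in slie/slie uninjured. In slie/slie injured, Mkrn1 stood at 72.1 against 171 and Bpgm at 92.7 against 191, closer than in the sums. Alas2, the enzyme of the first step of heme synthesis in red cells, differed less, with 115 against 293 UMIs (1.80-fold, 1.45 to 2.25) and a lower level in 3 of 4 libraries. Ftl1, the ferritin light chain, differed by 1.17-fold (0.967 to 1.42). The low barcodes were also shallower, with medians of 3088 against 5246 hemoglobin UMIs and 79.5 against 180 others. At 1000 or more hemoglobin UMIs the low class held more markers of other cell types in 3 libraries, at 237 against 66.6 per 10000 in control injured, 61.8 against 15.8 in slie/slie injured and 147 against 22.5 in slie/slie uninjured, and 0 against 3.77 in control uninjured. In slie/slie uninjured, 1 of the 8 low barcodes held 18 of their 20 marker UMIs and 847 of their 1359 UMIs other than hemoglobin. It was rich in mitochondrial RNA, and without such barcodes, 1 low and 3 high, the markers stood at 2 UMIs against 5, or 39.1 against 6.92 per 10000. Without them the erythroid members of the split still numbered 11 lower and 0 higher of 21, with a median log2 difference of -1.02 against -0.22 over 79 genes, and the 6 genes above were lower in the low barcodes of all 4 libraries. The part of depth and of these markers in the split was not tested.

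The transcripts other than hemoglobin were led by the erythroid program. Levels are given from here on as UMIs per 10000 UMIs other than hemoglobin, summed over the red cell barcodes of a library. Erythroid genes, in 8 lists by role with 91 members in the tables, came to 3128 in control injured (exact Poisson 95% interval 3059 to 3199), 2891 in slie/slie injured (2807 to 2976), 3492 in control uninjured (3344 to 3644) and 2888 in slie/slie uninjured (2791 to 2988). In the barcodes outside the rule the same genes came to 197, 146, 176 and 194. The control uninjured library was highest. Without 7 slie/slie uninjured and 2 control uninjured barcodes rich in mitochondrial RNA, described further on, the levels were 3630 in slie/slie uninjured and 3577 in control uninjured.

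**Figure D3:**
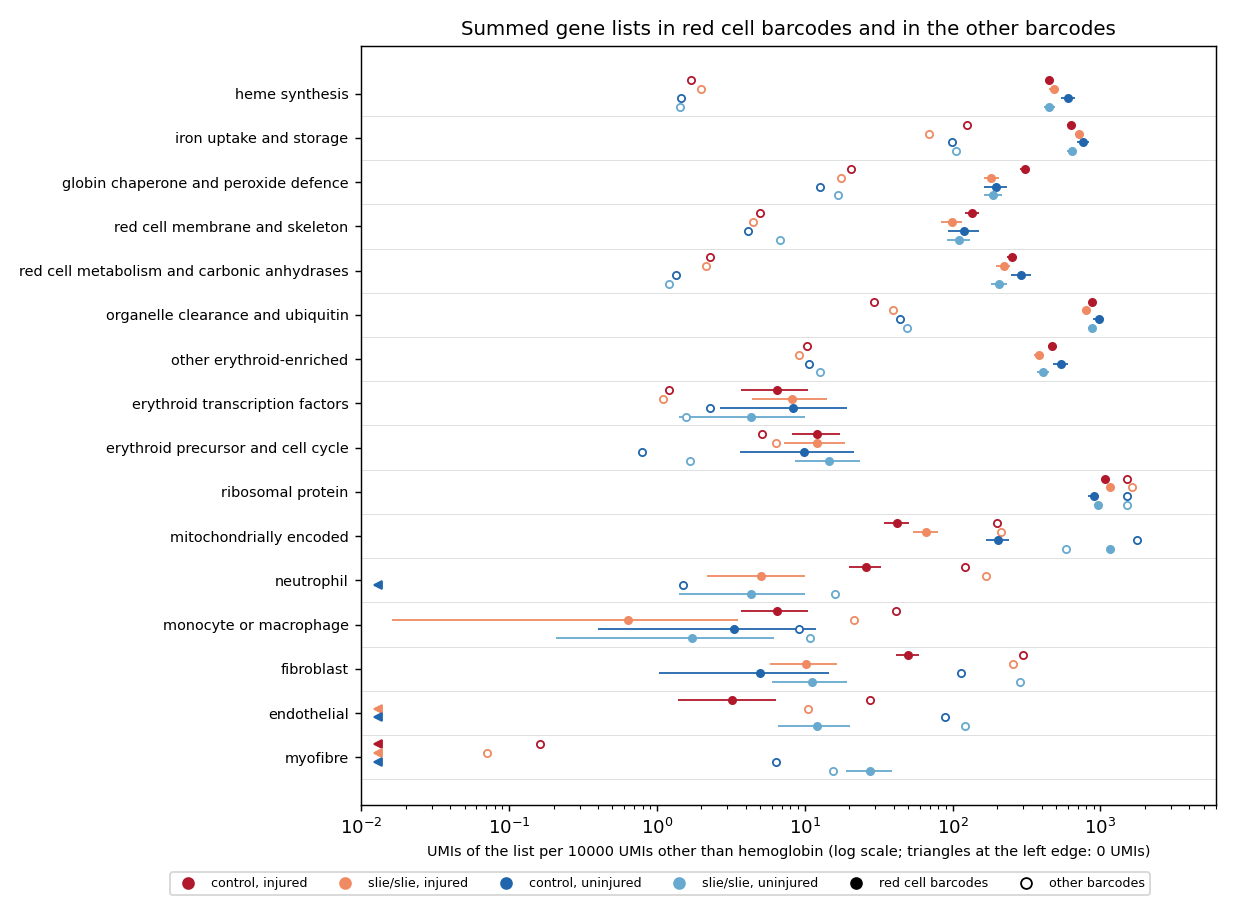
Summed UMIs of each gene list per 10000 UMIs other than hemoglobin (log scale) in red cell barcodes (filled, with exact Poisson 95% intervals) and in the other barcodes of the same library (open); triangles at the left edge stand for 0 UMIs. Heme synthesis lies at 451 to 605 in red cell barcodes and at 1.44 to 1.99 in the others, while the fibroblast and neutrophil lists lie to the left in red cell barcodes.

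Heme synthesis was represented by the first and the last enzyme of the pathway. Alas2 (chrX:150547375-150570638, plus strand, protein coding in GENCODE vM21) had 862, 600, 284 and 396 UMIs in control injured, slie/slie injured, control uninjured and slie/slie uninjured, or 347 (325 to 371), 381 (351 to 413), 471 (418 to 529) and 342 (309 to 377) per 10000. Control uninjured was highest, and the intervals of the other 3 overlapped. An Alas2 UMI was found in 74 of 86, 51 of 65, 22 of 26 and 34 of 40 red cell barcodes. In the other barcodes it was found in 0.191% to 2.01%, with 1 to 5 UMIs per library, at median depths of 1510, 750, 97 and 3307 UMIs. After thinning to 50 UMIs other than hemoglobin, Alas2 was held by 69.8%, 89.4%, 88.9% and 74.4% of the barcodes deep enough, with 0, 18, 8 and 1 barcodes left out. Fech, the ferrochelatase that puts iron into heme, had 249, 154, 80 and 128 UMIs. Enzymes between them were nearly absent: Urod had 5, 1, 1 and 0 UMIs, Cpox 3, 0, 0 and 0, Alad and Ppox 1 each in slie/slie injured alone, and Uros none.

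Iron genes were present for storage in ferritin and for import into the mitochondrion. The iron list came to 629, 714, 761 and 641 per 10000 in control injured, slie/slie injured, control uninjured and slie/slie uninjured, against 69.7 to 126 in the other barcodes. Ftl1 stood at 346, 452, 469 and 406, lowest in control injured, and Fth1, the ferritin heavy chain, at 131, 112, 103 and 97.5. Slc25a37 (mitoferrin-1), the mitochondrial iron importer of erythroblasts, stood at 123, 119, 157 and 116, and had 85, 20, 0 and 15 UMIs in all other barcodes together. Tfrc, the transferrin receptor by which erythroblasts take up iron and which reticulocytes shed, had 1 UMI, in slie/slie injured.

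Antioxidant genes were uneven among libraries. The list of globin chaperone and peroxide defence came to 309 in control injured and to 182, 196 and 188 in the other 3. Gpx1 had 188, 131, 139 and 114 per 10000 in control injured, slie/slie injured, control uninjured and slie/slie uninjured, and Prdx2, the abundant red cell peroxiredoxin, 62.9 (53.4 to 73.5), 33.0 (24.7 to 43.3), 14.9 (6.82 to 28.3) and 38.8 (28.3 to 52.0). Prdx2 in control uninjured rested on 9 UMIs in 5 barcodes. Gclm, the modifier subunit of glutathione synthesis, had 78, 17, 7 and 22 UMIs, and Blvrb, a biliverdin reductase, 45, 9, 10 and 14.

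Membrane and skeleton genes came to 135, 98.4, 119 and 110 per 10000. Epb41, protein 4.1 of the spectrin skeleton, held most of them at 81.8, 74.3, 81.2 and 76.0, with all 4 intervals overlapping. Slc4a1 (band 3, the anion exchanger) had 28, 6, 2 and 6 UMIs and none in any other barcode, so its counts came from red cell barcodes alone.

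Metabolic genes were mostly Bpgm, at 230, 206, 278 and 190 per 10000 in control injured, slie/slie injured, control uninjured and slie/slie uninjured. The carbonic anhydrase gene Car2 had 56, 22, 7 and 17 UMIs. Organelle clearance and ubiquitin genes formed the largest of the 8 erythroid role lists by UMIs, with 876, 798, 974 and 875 per 10000 against 29.2, 39.8, 44.2 and 49.2 in the other barcodes. Among them Mkrn1 stood at 240, 218, 280 and 205, Bnip3l (NIX), the receptor that marks reticulocyte mitochondria for autophagy, at 135, 109, 169 and 133, and Ube2l6, an ISG15- and ubiquitin-conjugating enzyme, at 121, 185, 167 and 159. The polyubiquitin gene Ubb stood at 247, 137, 152 and 213, highest in control injured.

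**Figure D4:**
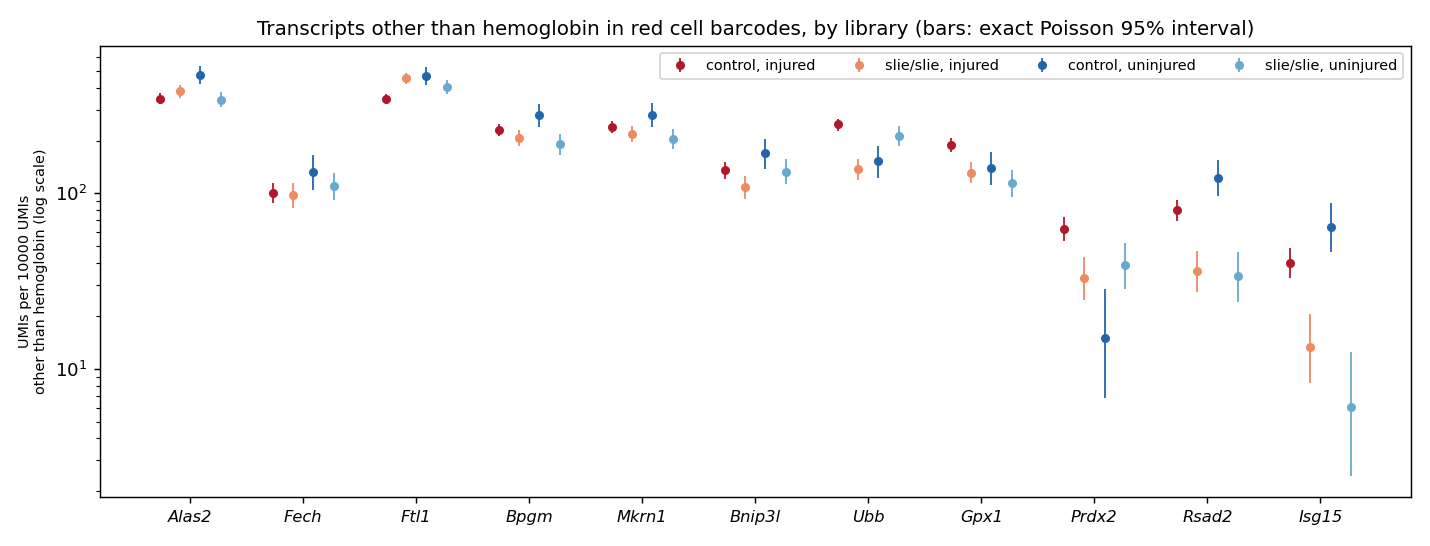
Levels of 11 transcripts in red cell barcodes of each library, as UMIs per 10000 UMIs other than hemoglobin (log scale) with exact Poisson 95% intervals. The 4 libraries lie close together for Alas2, at 342 to 471, and for Fech, at 97.8 to 133, and far apart for Prdx2, Rsad2 and Isg15.

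Other erythroid-enriched genes came to 469, 386, 537 and 411 per 10000. Fam46c, a poly(A) polymerase, stood at 128, 121, 136 and 124, with all intervals overlapping, and Isg20, an exonuclease, at 85.4, 54.0, 86.2 and 60.4. Outside the role lists, Pabpc1 stood at 290, 211, 320 and 218 and Oaz1, ornithine decarboxylase antizyme, at 229, 244, 293 and 249. Gm42418 and AY036118, annotated over ribosomal RNA sequence, had 719, 1090, 797 and 950 and 76.2, 131, 92.8 and 98.4. Ribosomal protein genes came to 1081, 1168, 900 and 962, against 1506 to 1625 in the other barcodes, and 41.3% of their UMIs in slie/slie injured came from 1 barcode.

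Nuclear and early erythroid transcripts were scarce. Of 10 erythroid transcription factors, Gata1, Klf1, Nfe2, Tal1 and Gfi1b had 0 UMIs in all 4 libraries, and the list had 16, 13, 5 and 5 UMIs, of which Lmo2, a bridging protein of the GATA complex, gave 13, 10, 4 and 3. The list of precursor and cell cycle genes had 30, 19, 6 and 17 UMIs, of which Ube2c, a mitotic ubiquitin-conjugating enzyme, gave 29, 16, 6 and 15. Ube2c was found in 15, 7, 4 and 8 barcodes. Per 10000, both lists were low in red cell barcodes yet higher than in the other barcodes. The transcription factors stood at 6.45, 8.26, 8.29 and 4.32 against 1.2, 1.1, 2.3 and 1.58. The precursor and cell cycle genes stood at 12.1, 12.1, 9.94 and 14.7 against 5.12, 6.42, 0.795 and 1.67. Malat1, a nuclear-retained RNA, stood at 219 to 380 per 10000 in the other barcodes and at 20.6, 72.4, 3.31 and 3.45 in red cell barcodes. Single barcodes held 30 of its 51 UMIs in control injured and 113 of 114 in slie/slie injured.

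That slie/slie injured barcode stood apart from all others of the rule. It had 3650 UMIs other than hemoglobin, 23.2% of those of its library, 1605 genes and a hemoglobin share of 80.3%. It also held all 5 UMIs of T or NK cell markers found in its library's red cell barcodes. Kit, the stem cell factor receptor of early erythroid cells, had 3 UMIs, in 1 slie/slie injured barcode.

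Markers of other cell types, 108 genes in 11 lists, were low but not equal. They had 240 UMIs in control injured (96.7 per 10000, 84.9 to 110), 37 in slie/slie injured (23.5, 16.5 to 32.4), 5 in control uninjured (8.29, 2.69 to 19.3) and 69 in slie/slie uninjured (59.6, 46.3 to 75.4), against 398 to 563 per 10000 in the other barcodes. Fibroblast markers gave 124, 16, 3 and 13 UMIs and neutrophil markers 64, 8, 0 and 5. Col1a1, a collagen chain, had 35 UMIs over 24 barcodes in control injured and 1, 0 and 0 elsewhere. Monocyte or macrophage markers gave 16, 1, 2 and 2 UMIs, pericyte or smooth muscle markers 15, 3, 0 and 2, endothelial markers 8, 0, 0 and 14, and myofibre markers 0, 0, 0 and 32. Platelet markers gave 5, 1, 0 and 0 UMIs, keratinocyte markers 7, 2, 0 and 0, B cell markers 1, 0, 0 and 0, and Schwann cell markers 0, 1, 0 and 1. Dissociation and heat shock genes gave 77, 70, 22 and 30 UMIs, nearly all of them from Jund, with 67, 61, 22 and 29. The part of these transcripts in the differences between libraries was not tested.

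Mitochondrial RNA set a few barcodes apart. Mitochondrially encoded transcripts came to 41.9, 66.0, 202 and 1161 per 10000 in control injured, slie/slie injured, control uninjured and slie/slie uninjured. In the other barcodes they came to 200, 213, 1771 and 588, so only in slie/slie uninjured did the red cell barcodes stand higher. In slie/slie uninjured, 7 of the 40 barcodes, each with 20% or more mitochondrial RNA among the UMIs other than hemoglobin, held 94.4% of these UMIs and 28 of the 32 myofibre UMIs. In control uninjured, 2 barcodes held 68.0%. Without these barcodes the levels were 66.4 in control uninjured and 86.1 in slie/slie uninjured, and 110 red cell barcodes (50, 35, 10 and 15) had no mitochondrial UMI at all. Ddr2, deleted in slie/slie mice, had 0 UMIs in red cell barcodes of every library and 116, 0, 5 and 2 UMIs in the other barcodes.

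Set against the other barcodes of the same suspension, red cell barcodes held more of the erythroid genes and less of most markers of other cells. Myofibre markers went the other way in slie/slie uninjured, at 27.6 per 10000 (18.9 to 39) against 15.6. Of their 32 UMIs there, 28 lay in the barcodes rich in mitochondrial RNA. T or NK cell markers in slie/slie injured, 5 UMIs in 1 barcode, stood at 3.18 (1.03 to 7.41) against 2.01. A gene was called here where its whole 95% interval lay at 2-fold or more, among genes with 20 or more UMIs in both sums together, since adding 1 count weighs more in the shallow red cell sums. In control injured, 1.52% of 10757 genes were called higher and 1.33% lower, in slie/slie injured 1.92% and 1.46% of 6418, in control uninjured 3.89% and 2.05% of 2493 and in slie/slie uninjured 1.6% and 0.959% of 6884. Of the 91 erythroid genes, 69, 52, 33 and 53 reached 20 UMIs, and 33, 28, 24 and 26 of them were called higher and none lower. Of the 108 markers of other cells, 73, 67, 46 and 67 reached it, and 17, 17, 10 and 12 were called lower and none higher. The rule used hemoglobin from the same barcodes, so these counts describe the barcodes and support nothing further.

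Beside the genes already given, Fam220a stood at 142 against 0.319 per 10000 in control injured and at 132 against 0.306 in slie/slie injured. Rec114, a meiotic recombination gene, had 35 and 32 UMIs there against 2 and 0 in the other barcodes. Lower in red cell barcodes were Gapdh, a glycolytic enzyme, at 2.02 against 19.6 per 10000 in control injured, Cxcl2, a neutrophil chemokine, at 0 against 41.1 in slie/slie injured, Fabp4, a fatty acid binding protein, at 0 against 53.3 in control uninjured and Dcn, the proteoglycan decorin, at 1.73 against 82.4 in slie/slie uninjured. Across 280 genes, the log levels of any pair of red cell sums correlated at 0.71 to 0.86, and those of red cell and other barcodes of the same library at -0.10 to 0.13. This is across genes, which are not independent replicates. The 280 are far fewer than the genes that reached 20 UMIs against the other barcodes, so the correlations hold for those 280 alone. They describe the barcodes and support nothing further.

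In control mice, red cell barcodes of the injured limb held more Prdx2, Ubb and fibroblast transcripts and less Ube2b, Ube2o and Alas2 than those of the uninjured limb. Here and in the comparisons that follow, a gene was counted at 2-fold or more after 1 count was added to each sum, among genes with 20 or more UMIs over both libraries, and the 4 comparisons share libraries in pairs. Of 186 genes, 14.5% were 2-fold or more higher and 10.2% lower in injured. Ribosomal protein genes were 14 of the 27 higher ones, and all 5 mitochondrially encoded genes that reached 20 UMIs were among the 19 lower ones. When mitochondrial and ribosomal protein genes were left out of the scaling and the count, 13 genes were higher and 14 lower. The erythroid lists were read against those shares: of 30 members that reached 20 UMIs, 4 were higher and 3 lower, with a median log2 difference of -0.07 against -0.18 for all genes. Higher in injured were Prdx2, at 62.9 against 14.9 per 10000 (3.82-fold, 2.16 to 9.39), Eif1, at 56.4 against 23.2 (2.29-fold, 1.40 to 4.56), and Ubb, at 247 against 152 (1.61-fold, 1.30 to 2.04). Col1a1 and Tmsb10, a small actin-binding protein, had 35 and 33 UMIs in injured and 0 in uninjured, at least 2.84-fold and 2.68-fold with a floor of 3 UMIs. Col1a1 is a member of the fibroblast list given above, and Tmsb10 is in none of the lists. Lower in injured were the ubiquitin enzymes Ube2b, at 22.6 against 59.7 (2.67-fold, 1.69 to 4.09), and Ube2o, at 20.6 against 51.4 (2.53-fold, 1.55 to 3.98), and Rec114, at 14.1 against 38.1 (2.74-fold, 1.52 to 4.70). Alas2 was lower by 1.36-fold (1.18 to 1.55). The gain of Gclm, 31.4 against 11.6 (log2 1.26), turned to -0.40 in barcodes with at most 100 genes, and the deficit of Mpp1, a membrane palmitoylated protein, at log2 -1.40, turned to 2.54 without the 3 deepest barcodes of each library.

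In slie/slie mice the erythroid lists were close between the limbs. Of 166 genes, 9.64% were 2-fold or more higher in injured and 9.64% lower, and of the 28 erythroid members that reached 20 UMIs none was higher and 2, Blvrb among them, were lower, with a median log2 difference of -0.03 against 0.04 for all genes. Of the 16 genes that were lower, 10 were mitochondrially encoded, and the 7 barcodes described above held 94.4% of those UMIs in the uninjured limb. Alas2 stood at 381 against 342 per 10000 (1.11-fold, 0.980 to 1.27), Bpgm at 206 against 190 (1.09-fold, 0.913 to 1.30) and Mkrn1 at 218 against 205 (1.06-fold, 0.896 to 1.26), each with an interval that included 1. Both sums held barcodes that weigh on this scaling. Without the 3 deepest barcodes of each library, the erythroid lists of the injured limb rose from 2891 to 3461. Without the barcodes rich in mitochondrial RNA, those of the uninjured limb rose from 2888 to 3630. The part of these barcodes in the ratios was not tested. Higher in injured was Tpt1, a translationally controlled protein, at 146 against 104 (1.40-fold, 1.13 to 1.77). Lower were Ubb, at 137 against 213 (1.55-fold, 1.29 to 1.87), Sec61g, a subunit of the protein channel of the endoplasmic reticulum, at 90.8 against 130 (1.43-fold, 1.13 to 1.82), and Riok3, a kinase of ribosome maturation, at 27.9 against 47.5 (1.69-fold, 1.12 to 2.59). The highest ratios, log2 4.08 for Malat1 and 1.56 for Fau, a ribosomal protein fused to a ubiquitin-like one, rested on few barcodes: 113 of 114 Malat1 UMIs and 37 of 43 Fau UMIs in the injured limb lay in 1 barcode each. Without the barcode of each library with most of the gene they became -1.17 and 0.05, and without the 3 deepest barcodes of each library -1.16 and -0.16. Ubb thus differed in opposite directions between limbs in the 2 genotypes, a difference that was not tested.

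Between the injured limbs, slie/slie red cell barcodes held less Gclm, Blvrb and Ubb and less of other cells' transcripts. Of 221 genes, 5.43% were 2-fold or more higher in slie/slie and 14.5% lower. Of the 32 erythroid members that reached 20 UMIs, 1 was higher and 6 were lower, with a median log2 difference of -0.18 against -0.08 for all genes. Lower in slie/slie were Gclm, at 10.8 against 31.4 per 10000 (2.79-fold, 1.71 to 5.25), Blvrb, at 5.72 against 18.1 (2.92-fold, 1.53 to 7.38), and Ubb, at 137 against 247 (1.80-fold, 1.54 to 2.11). All 6 markers of other cells that reached 20 UMIs were 2-fold or more lower in slie/slie, Col1a1 with 1 against 35 UMIs and Sparc with 4 against 28 among them. Higher were Ube2l6, at 185 against 121 (1.53-fold, 1.30 to 1.81), Ftl1, at 452 against 346 (1.31-fold, 1.18 to 1.44), and Isca1, an iron-sulfur cluster protein, at 66.0 against 42.7 (1.55-fold, 1.17 to 2.05). Alas2 differed by 1.10-fold (0.987 to 1.22), Fech by 0.977-fold (0.792 to 1.20) and Slc25a37 by 0.976-fold (0.808 to 1.17). The 1 slie/slie injured barcode described above held 23.2% of the UMIs to which every gene of that library was scaled. Without the 3 deepest barcodes of each library, the erythroid lists of slie/slie injured rose from 2891 to 3461 per 10000. The part of that barcode in the ratios given here was not tested. The log2 differences of Malat1 and Fau, 1.80 and 1.72, turned to -2.45 and -0.33 without the barcode that held most of each.

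Between the uninjured limbs, Alas2, Bpgm and Pabpc1 were lower in slie/slie by less than 2-fold when scaled to all UMIs other than hemoglobin. The erythroid members as a whole lay close to the median of all genes. Of 123 genes, 9.76% were 2-fold or more higher in slie/slie and 10.6% lower, and of the 27 erythroid members that reached 20 UMIs 1 was higher and 1 lower, with a median log2 difference of -0.35 against -0.27 for all genes. Of the 12 genes that were higher, 11 were mitochondrially encoded. Alas2 stood at 342 against 471 per 10000 (1.38-fold lower, 1.18 to 1.61), Bpgm at 190 against 278 (1.47-fold, 1.19 to 1.80) and Pabpc1 at 218 against 320 (1.47-fold, 1.21 to 1.78). Mitochondrial UMIs counted in this scaling, at 1161 per 10000 in slie/slie uninjured against 202 in control uninjured. Without the barcodes rich in mitochondrial RNA, the erythroid lists of slie/slie uninjured rose from 2888 to 3630. They were then no longer below those of control uninjured, as given above. The part of these barcodes in the ratios of Alas2, Bpgm and Pabpc1 was not tested. Lower by more were Ube2b, at 12.9 against 59.7 (4.44-fold, 2.46 to 9.06), Rec114, at 14.7 against 38.1 (2.56-fold, 1.33 to 5.18), Ube2o, at 24.2 against 51.4 (2.12-fold, 1.23 to 3.68), and Iscu, the scaffold of iron-sulfur clusters, at 12.9 against 34.8 (2.64-fold, 1.32 to 5.60). Higher were Ubb, at 213 against 152 (1.39-fold, 1.10 to 1.80), and Prdx2, at 38.8 against 14.9 (2.40-fold, 1.26 to 6.06), which turned from log2 1.26 to -0.63 in barcodes with at most 100 genes. The deficit of Mpp1, log2 -1.58, turned to 1.55 without the 3 deepest barcodes of each library.

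The interferon-inducible genes Rsad2, which encodes the antiviral enzyme viperin, and Isg15, which encodes a ubiquitin-like modifier, were unevenly held. Rsad2 had 199, 57, 74 and 39 UMIs in control injured, slie/slie injured, control uninjured and slie/slie uninjured, or 80.2 (69.4 to 92.2), 36.2 (27.4 to 46.9), 123 (96.3 to 154) and 33.7 (23.9 to 46.0) per 10000, against 0.0306 to 0.795 in the other barcodes. Isg15 had 100, 21, 39 and 7 UMIs, or 40.3, 13.3, 64.6 and 6.04 per 10000, against 0.592 to 1.25. Both were higher in the 2 control libraries than in the 2 slie/slie libraries, and in controls higher in the uninjured limb. Ube2l6, the ISG15-conjugating enzyme given above, went the other way between injured limbs and was higher in slie/slie. No list of interferon-inducible genes was fixed, so nothing is said here of such genes as a set. Rsad2 UMIs lay in 29, 16, 10 and 15 barcodes and Isg15 UMIs in 19, 6, 7 and 4, with both in 14, 5, 4 and 2. The barcode with most held 37, 16, 32 and 13 of the Rsad2 UMIs and 41, 6, 26 and 3 of the Isg15 UMIs, so the levels rested on few barcodes. In control uninjured these were 32 of 74 Rsad2 UMIs and 26 of 39 Isg15 UMIs. The limb difference in controls was not recomputed without such barcodes.

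**Figure D5:**
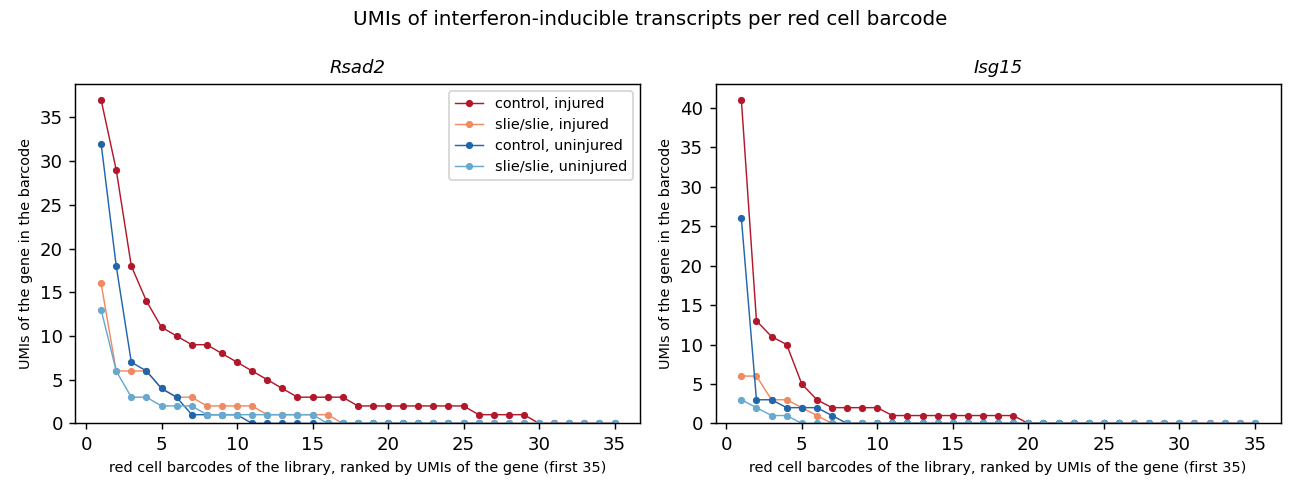
UMIs of Rsad2 (left) and Isg15 (right) in single red cell barcodes, ranked from high to low within each library, up to the first 35. The control injured curve starts at 37 and 41 UMIs and the control uninjured curve at 32 and 26, and both fall steeply.

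Slie/slie against control, Rsad2 was 2.19-fold lower in injured limbs (1.64 to 3.03) and 3.60-fold lower in uninjured limbs (2.44 to 5.52), and Isg15 2.91-fold (1.87 to 5.10) and 9.60-fold lower (4.73 to 28.3). Without the barcode of each library that held most of the gene, the log2 differences were -1.32 and -1.67 for Rsad2 and -1.29 and -2.55 for Isg15, in the same direction. In barcodes with at most 100 genes, the injured differences turned to 0.84 and 1.06. After thinning to 50 UMIs other than hemoglobin, Rsad2 was found in 17.4% of barcodes in control injured (10.1 to 27.1), 10.6% in slie/slie injured (3.55 to 23.1), 27.8% in control uninjured (9.69 to 53.5) and 7.69% in slie/slie uninjured (1.62 to 20.9). These intervals cover the counting of barcodes within 1 library and overlap in all 4.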

How the data were processed

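Droplet-based 3 prime single-cell RNA sequencing was deposited as 4 matrices, 1 per library, and the deposited values are raw UMI counts of each gene in each barcode. Per the file headers the authors made them with Cell Ranger 5.0.1, and mm10 is the build named per the submitters' processing notes. The counts were checked to be whole numbers over 27998 genes. Library totals ran from 579790 to 4515174 UMIs. How reads that match near-identical genes were treated was not given in the sources used here.

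Red cell barcodes were found by the hemoglobin rule, with no doublet caller, gene filter or mitochondrial filter. UMIs were summed per library and scaled to 10000 UMIs other than hemoglobin. Levels have exact Poisson intervals, shares Clopper-Pearson intervals and ratios exact conditional binomial intervals, all at 95%. With 1 library per group no test was run. Ratios used 1 added count and genes with 20 or more UMIs over both sums. Genes were named by rule: the 4 members of each list with most UMIs, all heme synthesis and embryonic globin genes, the 15 genes with the highest mean level, and per comparison the 10 highest and 10 lowest with 30 or more UMIs, ranked by the bound nearest 1. Mitochondrial, ribosomal protein and predicted genes were left out of the last 2, and Ddr2 was always given. Further names were chosen after their values were seen: Tfrc and Blvrb in the comparisons between libraries, and the genes of the Hbb-bt split. Some genes that the rule names are not reported here. The members and the lists were chosen with earlier results of these data known.

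Coordinates came from GENCODE vM21 and promoter sequences from RefSeq on GRCm38.p6, matched by symbol for 5 of 5 genes. Ahsp, Hbb-bh0, Trac, Ighm and Igkc, which the lists name, were not analysed here, and Tent5c was counted under its older symbol Fam46c. Scripts were tested on simulated data and ran in Python 3.11.15 with numpy 2.4.6, scipy 1.17.1 and pandas 2.3.3. Alternatives changed the hemoglobin limits, the depth and number of genes of the barcodes, the added count, the UMI minimum and the scaling.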

Additional observations from a re-analysis of the deposited data

Results flagged for a closer look

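Alas2 UMIs were also found outside the red cell barcodes. The slie/slie uninjured library had 5 of them, each in a different one of its 249 other barcodes, above the 3 counts that a count of 0 allows. The other libraries had 2 (control injured), 1 (slie/slie injured) and 2 (control uninjured), at or under that limit. These are raw counts from libraries of unlike depth. Per 10000 UMIs other than hemoglobin, control uninjured was highest at 0.0568 (0.00688 to 0.205). The slie/slie uninjured level was 0.0433 (0.0141 to 0.101), with an overlapping interval, and the injured libraries stood at 0.00527 (control) and 0.0102 (slie/slie). The slie/slie uninjured library also had the lowest share of its hemoglobin UMIs inside red cell barcodes, 98.0%, and the barcode with the highest hemoglobin share outside the rule among those with 50 or more hemoglobin UMIs, 38.1%.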

How the results depend on the processing

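The injured and uninjured libraries of a genotype came from limbs of the same burned mice, so each limb comparison sets 2 such libraries side by side. A fit over both genotypes with the genotype as a block was not run. Of 1822 recomputed ratios of named genes, 1709 kept their direction and their side of 2-fold, 31 rose past 2-fold, 34 fell below it, 23 moved otherwise and 25 turned direction. Where a value below moved, the cause was not tested, except that stricter minimums leave fewer barcodes or genes to count. Depth is a limit: the red cell sums hold 6034 to 24812 UMIs other than hemoglobin, and a gene under 20 UMIs gives no usable ratio.

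The shares of red cell barcodes became 7.48% in control injured at 95% hemoglobin. They became 22.5% for slie/slie injured and 20.2% in control uninjured among barcodes with 500 or more UMIs. Thinned to 100 UMIs, median genes were 8, 6, 6.5 and 6 in control injured, slie/slie injured, control uninjured and slie/slie uninjured. With at most 100 genes per barcode, the median of UMIs other than hemoglobin was 103 in control injured and 150 in slie/slie uninjured, and the control injured medians were 3.92% Hbb-bt and 0.936 alpha per beta.

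The erythroid lists per 10000 became, in control injured, 3286 at 95% hemoglobin, 1988 with at most 100 genes and 2440 with barcodes weighted equally. In slie/slie injured they became 3618, 3214 and 2762 in those settings, and 3461 without the 3 deepest barcodes. In control uninjured they became 3300 with at most 100 genes and 3330 weighted equally. In slie/slie uninjured they became 3251 at 80% and 3629 at 95% hemoglobin, 3133 with at most 100 genes and 3630 without barcodes of 20% or more mitochondrial RNA. Markers of other cells became 186 with at most 100 genes and 156 weighted equally in control injured, 39.0 and 49.5 likewise for slie/slie injured, and 21.8 with at most 100 genes in control uninjured. In slie/slie uninjured they became 28.6 at 80% and 9.76 at 95% hemoglobin, and 11.5 without the mitochondrial barcodes.

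Genes 2-fold apart either way numbered 46 between the control limbs, and 20 with at most 100 genes, 72 weighted equally, 16 with 50 or more UMIs over both sums and 27 when scaled without mitochondrial and ribosomal protein genes. Between the slie/slie limbs there were 32, and 4 at 95% hemoglobin, 14 without the 3 deepest barcodes, 11 with at most 100 genes, 10 with 50 or more UMIs and 13 with that scaling. Between the injured limbs there were 44, and 27 at 95% hemoglobin, 21 with at most 100 genes, 70 weighted equally and 10 with 50 or more UMIs. Between the uninjured limbs there were 25, and 9 at 95% hemoglobin, 7 with at most 100 genes, 10 without the mitochondrial barcodes, 12 with 50 or more UMIs and 10 with the other scaling. Red cell against other barcodes, with 1 count added, 6199, 3142, 1246 and 4128 genes were 2-fold apart. With at most 100 genes there were 9497, 4934 and 2097 in the first 3 libraries, and with 50 or more UMIs 3485, 1137, 330 and 873. With 0.5 counts added there were 800 in control uninjured and 2665 in slie/slie uninjured, and 698 in control uninjured with the other scaling.

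Log2 ratios that turned direction included these. With at most 100 genes, Gclm between the control limbs became -0.40, Malat1 between the slie/slie limbs -0.67, and in slie/slie against control Fau -2.07, Isg15 1.06, Malat1 -4.07 and Rsad2 0.84 in injured limbs and Mpp1 0.37 and Prdx2 -0.63 in uninjured limbs. Without the 3 deepest barcodes, Mpp1 became 2.54 between the control limbs and 1.55 between the uninjured limbs, Fau -0.16 and Malat1 -1.16 between the slie/slie limbs, and Fau -0.72 and Malat1 -3.61 between the injured limbs. At 95% hemoglobin, Fau and Malat1 became -0.03 and -0.35 between the slie/slie limbs and -0.48 and -3.49 between the injured limbs. Weighted equally, Fau became -2.09 and Malat1 -2.17 between the injured limbs, and Igfbp7 against the other barcodes 0.48 in slie/slie injured. Without the barcode with most of the gene, Malat1 became -1.17 between the slie/slie limbs, and Fau -0.33 and Malat1 -2.45 between the injured limbs. The alternatives on mitochondrial barcodes, on leaving out 1 barcode, on thinning to 50 UMIs, on 500 UMIs, on whole intervals and on the Hbb-bt split, with and without the mitochondrial barcodes, were chosen after the data were seen.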
